A study of Mus musculus with 4 samples.

Results

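The genes described here are 33 mouse genes linked to the transcription factor ATF4, listed by name for their part in the integrated stress response, amino acid synthesis, mitochondrial folate metabolism and amino acid transport. All 33 were matched to gene identifiers among the 53647 genes counted. Their transcripts were counted in bulk RNA-seq libraries of 4T1, a cell line from a mouse mammary carcinoma, here of wild-type genotype by its label. Cells of the uniSTING group were given mRNA that encodes uniSTING, a designed protein that imitates the immune adaptor STING. Cells of the Mock group were given EGFP mRNA, which encodes a fluorescent protein. There were 2 preparations of each, referred to as replicates 1 and 2. Both mRNAs were delivered with either a transfection reagent or lipid nanoparticles, and the labels do not say which carrier, dose or time applied to a library. Total counts were 18843543 and 25071840 in the uniSTING libraries, and 17502694 and 22039546 in the Mock libraries.

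ATF4 is a basic leucine zipper factor whose mRNA is translated preferentially when a kinase phosphorylates the initiation factor eIF2 and general translation falls. The kinases respond to different stresses: PERK to unfolded protein in the endoplasmic reticulum, GCN2 to uncharged tRNA, PKR to double-stranded RNA and HRI to heme shortage and mitochondrial stress. ATF4 pairs with C/EBP proteins on C/EBP-ATF elements and activates genes that import and synthesise amino acids, and also stress factors such as CHOP and ATF3. Because ATF4 is controlled largely by translation, the level of its mRNA is not a measure of its protein.

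Markers of epithelial cells were present in all libraries, with a summed level of 7 genes at 4857 and 4870 CPM (counts scaled to library size) in uniSTING and 4681 and 4743 CPM in Mock. Markers of other cell types were low: the sum of 6 macrophage genes was 26.4 and 9.8 CPM in uniSTING replicates 1 and 2 and 16 and 8.82 CPM in Mock replicates 1 and 2. The macrophage gene Lyz2 was at 15.5 and 0 CPM in uniSTING and 8.79 and 0 CPM in Mock, so it was found in the replicate 1 libraries and not in the replicate 2 libraries of either group, and Itgam was at 0 in all 4. The sum of 6 fibroblast genes was 13.2 and 9.88 CPM in uniSTING and 10.6 and 8.05 CPM in Mock, and that of 5 T cell genes was 3.04 and 2.05 CPM against 3.06 and 2.85 CPM. The variance between the 2 libraries of a group, estimated robustly, was 1.52 times that of counting noise in uniSTING and 1.47 times in Mock. Between uniSTING and Mock libraries of the same number the variance was 12.9 and 15.4 times that of counting noise. Nothing in the labels states that the preparations were separate cultures, and p-values here reflect just the variation between libraries, possibly technical. In a bulk culture, fewer cells with a transcript and less of it per cell cannot be told apart.

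The DNA letters that ATF4 and its C/EBP partners bind were looked for around the starts of these genes, because the genes share a regulator by name but did not move in 1 direction. RefSeq promoter windows (GRCm38.p6, 250 bases before to 50 after the start) were found for 28 of the 33 genes. The core of the C/EBP-ATF element, TGATGNAA on either strand, was in the windows of 8 of these 28 (28.6%), against 4.51% of 27025 genes with a window. Genes are linked to ATF4 in part because such elements were found in them, so this share describes the list. The stretches around the matches are shown for all 8, 5′ to 3′ along the gene, with the matched letters in capitals. They lie at chr1:191183410-191183469 (Atf3), chr7:126625547-126625606 (Nupr1), chr2:119351023-119351082 (Chac1), chr2:152344013-152344072 (Trib3), chr6:7693199-7693258 (Asns), chr11:120643818-120643877 (Pycr1), chr3:50443627-50443705 (Slc7a11) and chr11:20332684-20332743 (Slc1a4), on the plus strand for Chac1 and on the minus strand for the others.
Atf3: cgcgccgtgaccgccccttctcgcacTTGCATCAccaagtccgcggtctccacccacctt
Nupr1: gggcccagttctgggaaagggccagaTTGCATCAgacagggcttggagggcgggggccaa
Chac1: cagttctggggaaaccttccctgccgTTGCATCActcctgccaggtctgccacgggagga
Trib3: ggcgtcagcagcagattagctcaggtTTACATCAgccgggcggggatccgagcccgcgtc
Asns: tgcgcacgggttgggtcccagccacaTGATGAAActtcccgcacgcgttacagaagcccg
Pycr1: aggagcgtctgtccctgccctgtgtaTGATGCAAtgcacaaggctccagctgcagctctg
Slc7a11: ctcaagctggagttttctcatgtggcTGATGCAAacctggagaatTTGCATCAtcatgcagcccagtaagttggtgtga
Slc1a4: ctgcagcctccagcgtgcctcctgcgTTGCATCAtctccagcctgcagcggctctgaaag

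In Atf3, Nupr1, Chac1, Trib3 and Slc1a4 and at the second Slc7a11 match the core is on the other strand, so its reverse complement is shown. The match began 110 bases before the start in both Atf3 and Nupr1, 23 before it in Asns and 4 before it in Slc1a4, while that of Trib3 began at base 15 of the transcript. Slc7a11 had 2 matches, in opposite orientations, that began 66 and 47 bases before the start. The longer form TGATGCAAT, which contains the core and was also searched on both strands, was in the windows of Nupr1 and Pycr1 and in 0.222% of genes. Of these 8 genes, Atf3 and Nupr1 rose in uniSTING cells, Trib3, Asns, Pycr1, Slc7a11 and Slc1a4 fell, and Chac1 did not pass the test. Over all genes tested 24.9% were higher and 25.4% lower. With the trend of fold changes with exon length removed, Slc7a11 did not pass (edgeR, -0.10, adjusted p = 0.106) and Chac1 passed as lower (-0.28, adjusted p = 3.93e-04). The 2 genes with the longer form went opposite ways, Nupr1 by 0.33 and Pycr1 by -0.76 on the log2 scale. A match is a run of letters and not a measured binding site.

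Most of the ATF4-linked genes were lower in uniSTING cells, while a few stress factors were higher. Of 31 genes with enough counts to be tested, 24 fell, 5 rose and 2 did not pass (edgeR quasi-likelihood test, adjusted p under 0.05 over all 12972 genes tested). The 5 that rose were Atf4, Atf3, Ddit3, Nupr1 and Ppp1r15a. Among all genes tested 50.2% passed, 25.4% as lower and 24.9% as higher. The median log2 fold change of the 31 genes was -0.25 (-0.25 between the replicate 1 libraries, -0.26 between the replicate 2 libraries), against 0.006 over all genes tested. In 30 of the 31 genes the libraries of the groups did not overlap, with uniSTING below Mock in 25 and above it in 5, and the groups failed to overlap in 75.1% of all genes tested, with uniSTING below in 37.3% and above in 37.8%. Changes were modest: none of the 31 reached 2-fold, 6 of the 29 called reached 1.5-fold and 10 were under 1.2-fold.

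**Figure D1:**
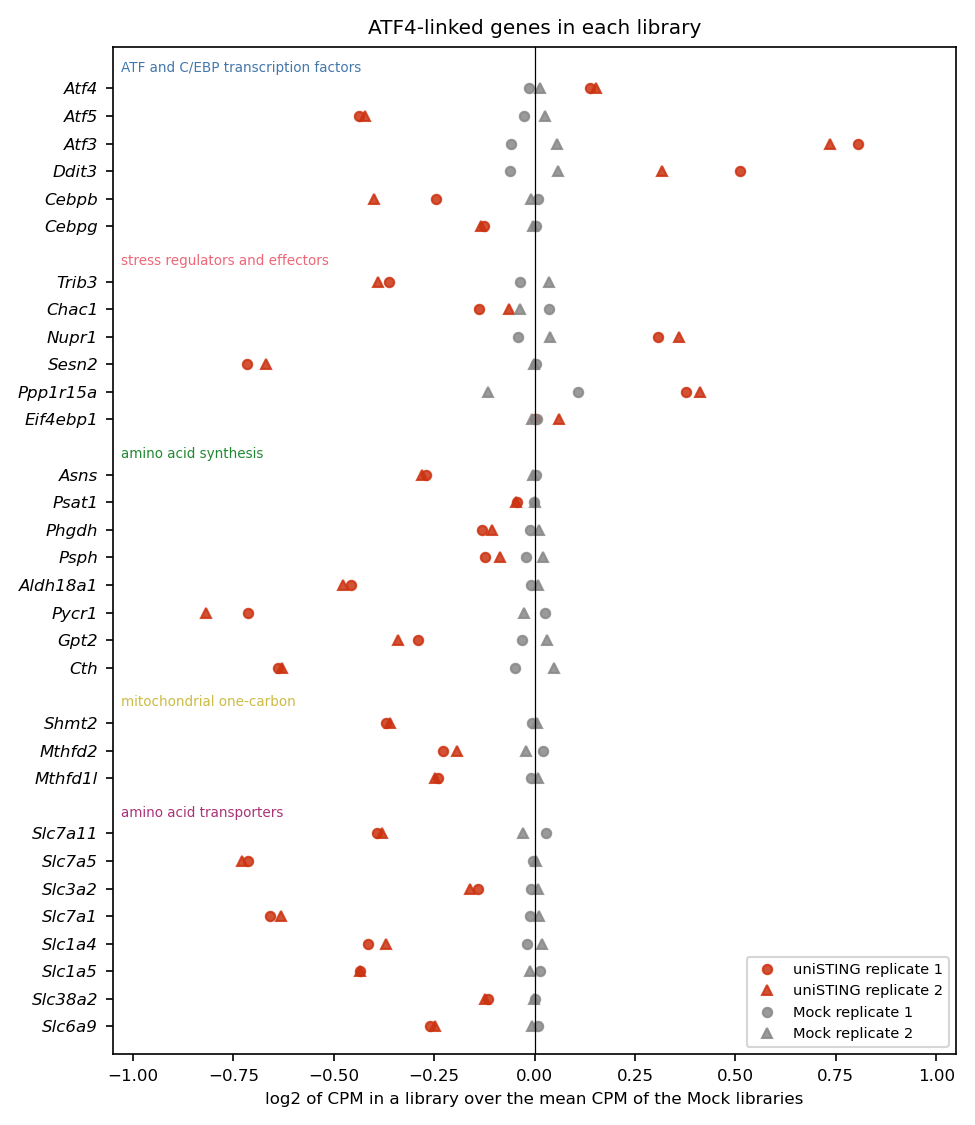
Level of each of the 31 tested genes in each library, as the log2 of its CPM over the mean CPM of the Mock libraries, grouped by role (red, uniSTING; grey, Mock; circles, replicate 1; triangles, replicate 2). The uniSTING libraries lie left of both Mock libraries for 25 genes and right of both for 5, among them Atf3 and Ddit3, and only Eif4ebp1 overlaps.

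Among the 6 transcription factor genes, 3 rose and 3 fell (50% each), beside 24.9% higher and 25.4% lower over all genes tested. Atf4 itself (ENSMUSG00000042406, chromosome 15, 80139385 to 80141742, GRCm39) was at 625 and 631 CPM in uniSTING and 563 and 573 CPM in Mock. The libraries did not overlap, but the rise was small, 1.11-fold (log2 fold change 0.14, SE 0.02, adjusted p = 4.63e-05), and it was no longer past the test once fold changes were freed of their trend with exon length (0.03, adjusted p = 0.179). With length and GC trends both removed it passed as higher (0.09, adjusted p = 0.00108). Atf3 (ENSMUSG00000026628, chromosome 1, 190902493 to 190950236), an immediate stress factor induced by ATF4 and by other pathways, was at 44.7 and 42.6 CPM in uniSTING and 24.6 and 26.6 CPM in Mock. Its log2 fold change of 0.77 (SE 0.07, adjusted p = 5.07e-06), a 1.7-fold rise, was the largest rise of the 31 genes, and stood at 0.63 with the length trend removed. Ddit3, which encodes the pro-apoptotic factor CHOP, was at 29.3 and 25.6 CPM in uniSTING and 19.7 and 21.4 CPM in Mock. It rose by 0.40 (SE 0.08, adjusted p = 0.0023), which was 0.57 between replicate 1 libraries and 0.25 between replicate 2 libraries, and missed the threshold with trends in length and GC content removed (adjusted p = 0.0937). Some 10.9% of its exon bases are shared with other genes, the methionyl-tRNA synthetase gene on the opposite strand among them, and strand was not used in counting. Another annotated entry that also bears the symbol Ddit3 overlaps it on the same strand. The values here are those of 1 entry, and the counts of the other were not examined.

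The remaining ATF and C/EBP factors went down. Atf5, a close relative of ATF4 linked to the mitochondrial stress response, was at 64.9 and 65.5 CPM in uniSTING and 86.2 and 89.4 CPM in Mock, 1.35-fold lower (log2 fold change -0.43, SE 0.04, adjusted p = 3.44e-06). Cebpb, which encodes a C/EBP factor of inflammation and stress, was at 19.7 and 17.7 CPM in uniSTING and 23.5 and 23.2 CPM in Mock, a fall by 0.32 on the log2 scale (by 0.52 with the length trend removed) that was lost without uniSTING replicate 2 (adjusted p = 0.0579). For this gene 20.7% of the exon bases are shared with a gene on the opposite strand. Cebpg, whose product pairs with ATF4 on C/EBP-ATF elements, was at 70.1 and 69.8 CPM in uniSTING and 76.7 and 76.3 CPM in Mock. Cebpg fell only 1.09-fold, and neither DESeq2 (adjusted p = 0.142) nor the fit with the length trend removed (adjusted p = 0.11) called it. Leaving out uniSTING replicate 2 or Mock replicate 2 also ended the call (adjusted p = 0.0613 and 0.0878), while Cebpg passed with length and GC trends removed (-0.16, adjusted p = 0.00465). So the mRNAs of ATF4, ATF3 and CHOP were higher and those of ATF5, C/EBP-beta and C/EBP-gamma were lower in the same libraries.

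Of the 6 stress regulators and effectors, 2 rose (33.3%), 2 fell (33.3%) and 2 did not pass. That is near the 24.9% and 25.4% of all genes tested, so the split itself does not set these genes apart. Nupr1, a small chromatin-associated stress protein, was at 69.5 and 72.1 CPM in uniSTING and 54.6 and 57.7 CPM in Mock, a 1.26-fold rise (log2 fold change 0.33, SE 0.05, adjusted p = 1.49e-04). Ppp1r15a encodes GADD34, which directs phosphatase PP1 to eIF2 and ends the response. Its level was 19.4 and 19.9 CPM in uniSTING and 16.1 and 13.8 CPM in Mock, a 1.32-fold rise (adjusted p = 0.00279). Sesn2 (ENSMUSG00000028893, chromosome 4, 132219343 to 132237812), which encodes a leucine sensor that restrains mTORC1, was at 17.5 and 18.1 CPM in uniSTING and 28.8 and 28.7 CPM in Mock. All 4 values are close to those of the other library of their group, and the log2 fold change was -0.69 (SE 0.07, adjusted p = 1.12e-05), 1.61-fold lower. Trib3, a pseudokinase gene that is a classical ATF4 and CHOP target and whose product restrains ATF4, was at 110 and 108 CPM in uniSTING and 138 and 145 CPM in Mock, with a log2 fold change of -0.38 (SE 0.03). The ratio of Atf4 to Trib3, each per kilobase of exon, was 5.13 and 5.24 in uniSTING and 3.66 and 3.56 in Mock.

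Chac1 and Eif4ebp1 did not pass the test. Chac1, which encodes a glutathione-degrading enzyme and is often used as a reporter of ATF4 activity, was at 71.5 and 75.4 CPM in uniSTING and 80.7 and 76.8 CPM in Mock (log2 fold change -0.10, SE 0.04, adjusted p = 0.0791). It passed as lower with the length trend removed (-0.28, adjusted p = 3.93e-04), and in the fit that left out uniSTING replicate 2 (-0.14, adjusted p = 0.0404). Eif4ebp1, which encodes the translation repressor 4E-BP1, was at 237 and 247 CPM in uniSTING and 238 and 236 CPM in Mock. Its fold change of 0.03 (SE 0.03) turned to -0.09 with the length trend removed, where it passed as lower (adjusted p = 0.0142).

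All 8 tested genes of amino acid synthesis were lower in uniSTING, beside 25.4% of all genes tested. The largest fall was that of Pycr1 (ENSMUSG00000025140, chromosome 11, 120526538 to 120534595), which makes proline from pyrroline-5-carboxylate in mitochondria, at 11.5 and 10.7 CPM in uniSTING and 19.2 and 18.5 CPM in Mock (log2 fold change -0.76, SE 0.08, adjusted p = 1.96e-05). Aldh18a1, the enzyme before it in proline synthesis, was at 218 and 215 CPM in uniSTING and 297 and 301 CPM in Mock (-0.47, SE 0.02, adjusted p = 3.31e-08). Both steps of the pathway from glutamate to proline therefore had fewer transcripts in each uniSTING library than in either Mock library. The same order of libraries was seen in 37.3% of all genes tested. Cth, which makes cysteine from cystathionine, was at 41.9 and 42.2 CPM in uniSTING and 63 and 67.4 CPM in Mock (-0.63, SE 0.05, adjusted p = 3.38e-06). Asns, asparagine synthetase and a standard ATF4 target, was at 408 and 405 CPM in uniSTING and 493 and 491 CPM in Mock, 1.21-fold lower (-0.27, SE 0.02, adjusted p = 4.07e-07). Gpt2, the mitochondrial alanine aminotransferase, was at 152 and 147 CPM in uniSTING and 182 and 190 CPM in Mock, 1.25-fold lower.

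The 3 enzymes that make serine from 3-phosphoglycerate changed least among the synthesis genes. Phgdh, the first step, was at 817 and 830 CPM in uniSTING and 887 and 901 CPM in Mock, 1.09-fold lower (log2 fold change -0.12, adjusted p = 1.15e-04; -0.22 with the length trend removed). Psat1, the next step, was at 1159 and 1156 CPM in uniSTING and 1194 and 1195 CPM in Mock, a 1.03-fold fall that passed (adjusted p = 0.0154) and was lost when no filter on counts was used (adjusted p = 0.13) and without Mock replicate 2 (adjusted p = 0.0553). Psph, the last step, was at 151 and 155 CPM in uniSTING and 162 and 167 CPM in Mock, with 10.4% of its exon bases shared with a gene on the opposite strand. Psph fell 1.08-fold (adjusted p = 0.0091), but DESeq2 did not call it (adjusted p = 0.075), nor did fits that left out uniSTING replicate 1 or Mock replicate 2 (adjusted p = 0.0573 and 0.0693). Per kilobase of exon, Phgdh was the most abundant of the 33 genes in both groups, at 331 CPM per kb in uniSTING and 360 CPM per kb in Mock, followed by Psat1 at 272 and 281 CPM per kb. Cbs, which makes cystathionine from homocysteine and serine, had 5 and 7 counts in uniSTING and 4 and 16 counts in Mock and was not tested. The ratio of its CPM from summed counts was 0.546 with an exact 95% interval for counting error of 0.244 to 1.17, so these counts are too few to show a difference.

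The 3 mitochondrial enzymes of the folate cycle, which turn serine into glycine and formate, all fell, beside 25.4% of all genes tested. Shmt2 was at 606 and 610 CPM in uniSTING and 779 and 786 CPM in Mock (log2 fold change -0.36, SE 0.02, adjusted p = 1.68e-08). Mthfd2, the dehydrogenase and cyclohydrolase that is high in many tumours, was at 239 and 245 CPM in uniSTING and 284 and 276 CPM in Mock (-0.21, SE 0.02). Mthfd1l, the synthetase that releases formate, was at 201 and 200 CPM in uniSTING and 236 and 239 CPM in Mock (-0.25, SE 0.02). Their summed level was 1045 and 1054 CPM in uniSTING and 1299 and 1301 CPM in Mock. These values lay further apart between groups than within either group, but the groups failed to overlap in 75.1% of all genes tested. On the scale of CPM per kilobase, Shmt2 was below Atf4 in uniSTING (195 and 196 against 265 and 268) and above it in Mock (251 and 253 against 239 and 243).

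All 8 tested amino acid transporter genes were lower in uniSTING, beside 25.4% of all genes tested. The strongest was Slc7a5 (ENSMUSG00000040010, chromosome 8, 122607889 to 122634433), which encodes LAT1, an exchanger of leucine and other large neutral amino acids, at 441 and 437 CPM in uniSTING and 722 and 725 CPM in Mock. Its log2 fold change of -0.72 (SE 0.02), 1.65-fold lower, had the smallest adjusted p of the 31 genes (2.58e-10). Slc3a2, which encodes the heavy chain 4F2hc that LAT1 and xCT need at the membrane, was at 377 and 372 CPM in uniSTING and 413 and 418 CPM in Mock (-0.15, SE 0.02). The ratio of Slc7a5 to Slc3a2 per kilobase of exon was accordingly 1.12 and 1.12 in uniSTING and 1.66 and 1.65 in Mock. Slc7a11, which encodes the cystine and glutamate exchanger xCT, was at 49.6 and 50.1 CPM in uniSTING and 66.4 and 63.9 CPM in Mock (-0.39, SE 0.05, adjusted p = 6.7e-05). The fall of Slc7a11, with 13.9 kb of exons the longest of these genes, was not past the test with the length trend removed (-0.10, adjusted p = 0.106), and passed with length and GC trends removed (-0.23, adjusted p = 0.00262).

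Slc7a1, the cationic amino acid transporter CAT1 that takes up arginine and lysine, was at 150 and 153 CPM in uniSTING and 235 and 239 CPM in Mock (log2 fold change -0.64, SE 0.03, adjusted p = 8.86e-09; -0.42 with the length trend removed). Slc1a5, the glutamine transporter ASCT2, was at 173 and 173 CPM in uniSTING and 236 and 232 CPM in Mock (-0.43, SE 0.02). Slc1a4, the related carrier ASCT1 for alanine, serine and cysteine, was at 60 and 61.9 CPM in uniSTING and 79 and 81.1 CPM in Mock (-0.39, SE 0.04). These 3 carriers thus fell by 1.31-fold to 1.56-fold. Their uniSTING libraries were below both Mock libraries, as in 37.3% of all genes tested. Slc38a2, the neutral amino acid transporter SNAT2 that amino acid starvation induces, was at 366 and 364 CPM in uniSTING and 397 and 396 CPM in Mock (-0.12, SE 0.02), a direction that turned to 0.03 with the length trend removed (adjusted p = 0.205) and was -0.02 with length and GC trends removed (adjusted p = 0.314). Slc6a9, the glycine transporter GLYT1, was at 24.1 and 24.3 CPM in uniSTING and 29 and 28.7 CPM in Mock (-0.25, SE 0.07, adjusted p = 0.00891), which DESeq2 did not call (adjusted p = 0.0771), nor did the fit with length and GC trends removed (adjusted p = 0.143). Its level is uncertain, since 30.2% of its exon bases are shared with genes on the opposite strand. Slc7a3, a further cationic amino acid transporter gene, had 8 and 8 counts in uniSTING and 2 and 10 counts in Mock, a ratio of 1.21 (95% interval 0.539 to 2.81), and was not tested. Over all 9 carriers, the summed level was 1640 and 1636 CPM in uniSTING and 2177 and 2184 CPM in Mock.

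**Figure D2:**
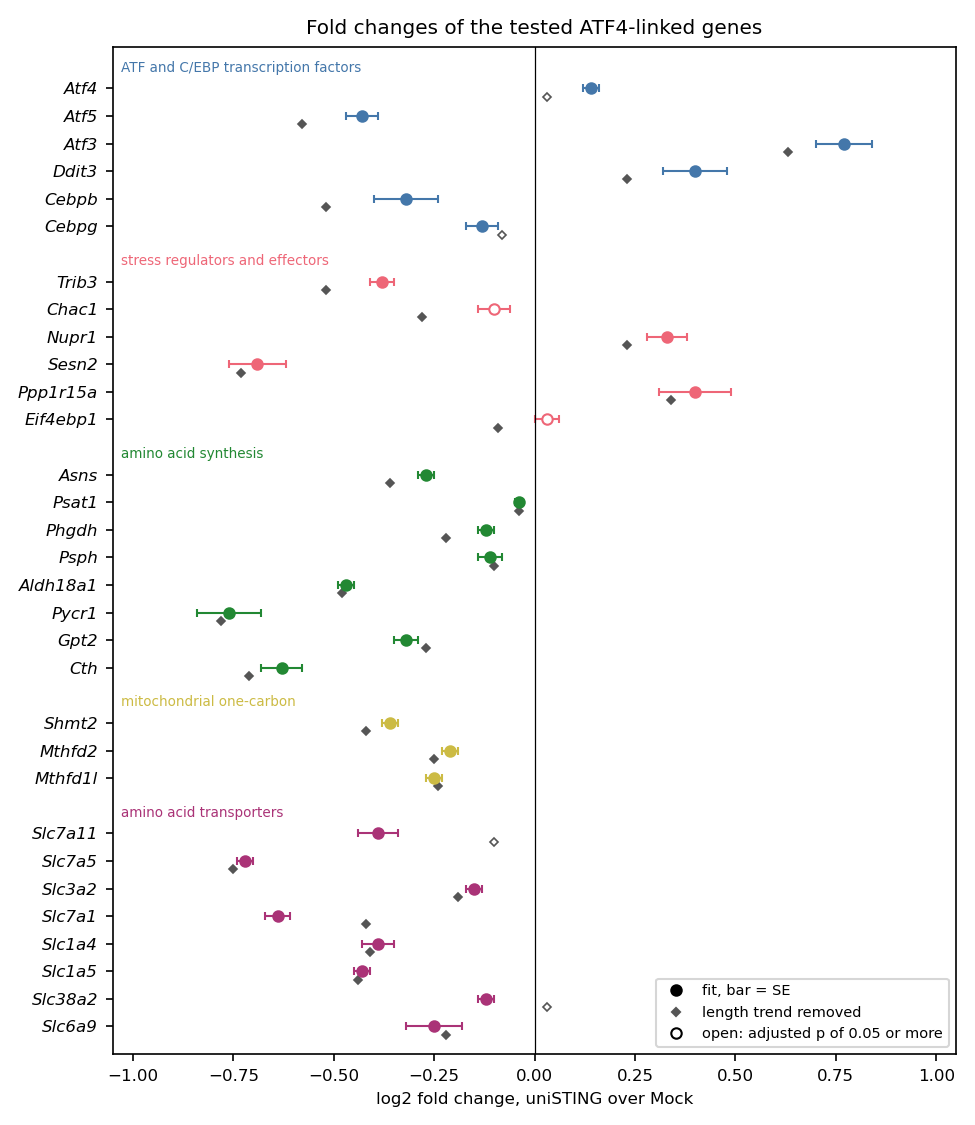
Log2 fold change of uniSTING over Mock for each of the 31 tested genes with its SE (circles, coloured by role), and the same with the exon length trend removed (diamonds); open symbols did not pass an adjusted p of 0.05. Synthesis, folate and transporter genes lie left of 0 in the fit as made, and with the length trend removed Slc38a2 moves to 0.03.

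Fold changes in these libraries followed exon length, so the same genes were examined with that trend removed. Over 7970 genes of at least 16 CPM, the Spearman rho between exon length and log2 fold change was -0.49, a description across genes that share the same 4 libraries. It was -0.31 over the 31 ATF4-linked genes. The 5 genes that rose had a median exon length of 2.36 kb and the 24 that fell one of 3.93 kb. With the length trend removed, 23 of the 31 were lower and 4 higher, against 22.2% and 23.4% (45.6% in all) of the genes tested, and the median stayed at -0.25. Atf4, Cebpg, Slc7a11 and Slc38a2 then did not pass, and Chac1 and Eif4ebp1 passed as lower. Atf3, Ddit3, Nupr1 and Ppp1r15a kept their calls as higher there, with log2 fold changes of 0.63, 0.23, 0.23 and 0.34. For Ddit3 the call was at the margin (edgeR, adjusted p = 0.0489), and it was lost with length and GC trends removed.

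**Figure D3:**
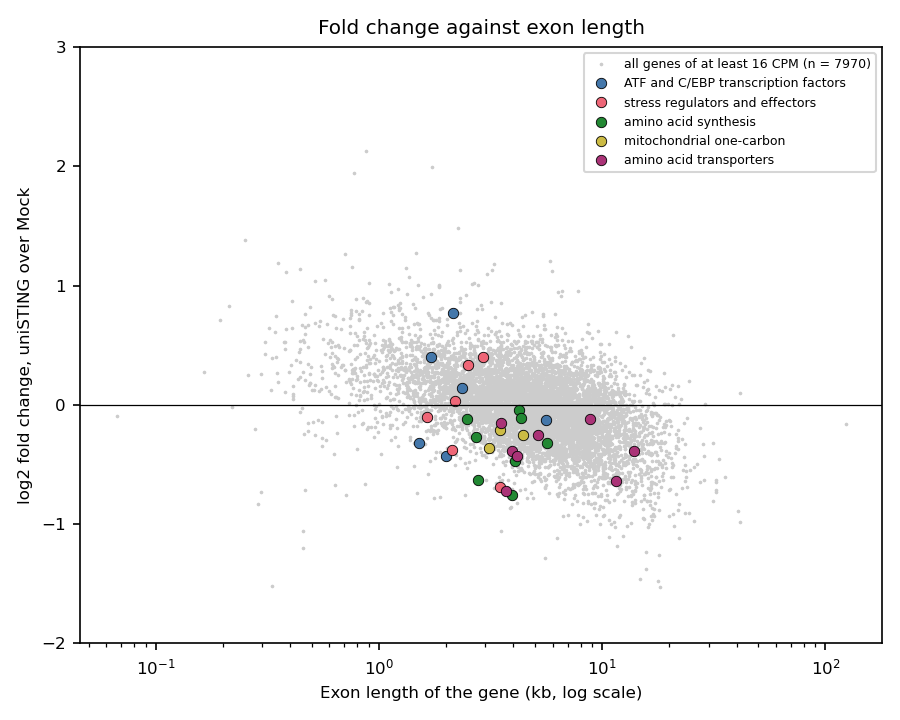
Log2 fold change of uniSTING over Mock against exon length (kb, log scale) for 7970 genes of at least 16 CPM (grey) and the 31 tested ATF4-linked genes (coloured by role). The grey cloud slopes down with length (rho -0.49), and the synthesis and folate genes, of middle length, lie below 0.

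The sensors and the machinery upstream of ATF4 were measured with a list of 17 genes. Of these 6 rose (35.3%), 5 fell (29.4%) and 6 did not pass, with a median log2 fold change of 0.06. Over all genes tested 24.9% rose and 25.4% fell, so the list was not far from that background. The list is mixed by function. The 4 eIF2 kinases are given because they are the sensors, 3 of them outside the naming rule and chosen after their values were seen. Eif2ak2, which encodes PKR and is itself interferon-inducible, was at 44.2 and 42.9 CPM in uniSTING and 31 and 31.3 CPM in Mock, a 1.4-fold rise (adjusted p = 8.09e-05). Eif2ak4 (GCN2) was at 33.4 and 34.6 CPM in uniSTING and 46.6 and 43.6 CPM in Mock (-0.41, adjusted p = 3.89e-04), and Eif2ak1 (HRI) was at 32.1 and 32.9 CPM against 39.9 and 42.4 CPM (-0.34, adjusted p = 0.00126). Eif2ak3 (PERK) did not pass, at 17.2 and 14.5 CPM in uniSTING and 15.1 and 12.7 CPM in Mock (0.19, adjusted p = 0.175). It passed as higher without uniSTING replicate 2 (0.31, adjusted p = 0.0386) and with a replicate block and the length trend removed (0.26, adjusted p = 0.0352). Thus the PKR gene was higher and the GCN2 and HRI genes were lower in these libraries. Gcn1, the ribosome-bound activator of GCN2, was at 158 and 155 CPM in uniSTING and 254 and 269 CPM in Mock (-0.74, SE 0.03, adjusted p = 1.27e-08; -0.39 with the length trend removed and -0.27 with length and GC trends removed). Ppp1r15b, the constitutive eIF2 phosphatase subunit CReP, fell 1.2-fold while its stress-induced relative Ppp1r15a rose. The ratio of Ppp1r15a to Ppp1r15b per kilobase was 0.246 and 0.256 in uniSTING and 0.17 and 0.147 in Mock. Eif2s1, the eIF2 subunit that is phosphorylated, was at 332 and 338 CPM in uniSTING and 303 and 293 CPM in Mock (0.17, adjusted p = 1.13e-04; 0.07, adjusted p = 0.0222, with length and GC trends removed). Without Mock replicate 2 the count of genes that rose was 3.

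Cytosolic aminoacyl-tRNA synthetases load amino acids onto tRNA, and many of their genes are ATF4 targets. Of 20 such genes 12 fell (60%), 2 rose (10%) and 6 did not pass, with a median of -0.17. The shares over all genes tested were 25.4% and 24.9%. Eprs was at 368 and 379 CPM in uniSTING and 528 and 522 CPM in Mock (-0.49, -0.13 with the length trend removed) and Iars at 276 and 282 CPM against 383 and 382 CPM (-0.45). Nars and Aars fell 1.27-fold and 1.26-fold, with log2 fold changes of -0.35 and -0.33 that were -0.34 and -0.17 with the length trend removed and -0.36 and -0.09 with length and GC trends removed. The rising genes were 1 without Mock replicate 1 or uniSTING replicate 2. Of 12 tested among 24 other amino acid transporter genes, 5 fell, 1 rose and 6 did not pass, with a median of -0.15. Slc38a1, the glutamine transporter SNAT1, fell 1.44-fold to 125 and 133 CPM in uniSTING, against 185 and 187 CPM in Mock, and the taurine transporter gene Slc6a6 fell 1.27-fold. Their log2 fold changes of -0.53 and -0.35 were -0.18 and -0.21 with the length trend removed. Slc38a7 and Slc38a10, with log2 fold changes of -0.36 and -0.26, fell as well, but Slc38a10 did not pass with length and GC trends removed (-0.08, adjusted p = 0.0583). The 5 of 12 that fell stand beside 25.4% of all genes tested.

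Other genes linked to ATF4 did not share 1 direction. Among 19 tested, 9 were higher (47.4%), 7 lower (36.8%) and 3 did not pass (median 0.13). Over all genes tested 24.9% were higher and 25.4% lower. Ddit4, which encodes the mTORC1 inhibitor REDD1 and also responds to hypoxia, was at 416 and 401 CPM in uniSTING and 249 and 251 CPM in Mock (0.71, SE 0.02, adjusted p = 3.2e-09). Ero1l, an oxidase of the endoplasmic reticulum, rose 1.5-fold, and the autophagy receptor gene Sqstm1 rose 1.18-fold. The tRNA exporter gene Xpot fell 1.25-fold. Without Mock replicate 1 the higher genes of this list were 5, and without Mock replicate 2 the lower genes were 4. The ATF6 and XBP1 arms of the unfolded protein response control genes for folding in the endoplasmic reticulum. In a list of these and related genes, 14 of 20 were higher (70%) and 3 lower (15%), with a median of 0.13. These stand beside the same 24.9% and 25.4%. The 3 lower genes, named after their values were seen, were Ern1 (-0.50), Atf6 (-0.23) and Sel1l (-0.14). With the length trend removed only Ern1 stayed lower (-0.37). With length and GC trends removed 3 genes were lower: Ern1 (-0.35), Atf6 (-0.10, adjusted p = 0.0224) and Canx (-0.11, adjusted p = 2.68e-04). Canx, also named after its values were seen, did not pass in the main fit. Calr rose 1.28-fold, Pdia3 1.17-fold, Hsp90b1 1.14-fold (log2 fold change 0.19, against 0.07 with length and GC trends removed) and the chaperone gene Hspa5 1.14-fold, to 2036 and 2041 CPM in uniSTING, against 1809 and 1770 CPM in Mock. The 14 became 8 with the length trend removed and 9 without Mock replicate 1 or Mock replicate 2. Of 15 tested genes of the folate and glycine cycles outside the listed 3, 5 rose, 7 fell and 3 did not pass (median -0.11), and the risers were 3 without Mock replicate 1, Mock replicate 2 or uniSTING replicate 2. Thymidylate synthase, Tyms, was at 132 and 127 CPM in uniSTING and 99.6 and 106 CPM in Mock, and Ahcy, adenosylhomocysteinase, rose 1.14-fold to 156 and 157 CPM in uniSTING, against 140 and 135 CPM in Mock (0.19, adjusted p = 2.16e-04; 0.11 with the length trend removed). Mtr, methionine synthase, fell 1.37-fold and Fpgs, folylpolyglutamate synthase, 1.24-fold. Of the tested folate and glycine genes 33.3% rose and 46.7% fell, beside 24.9% and 25.4% of all genes tested.

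**Figure D4:**
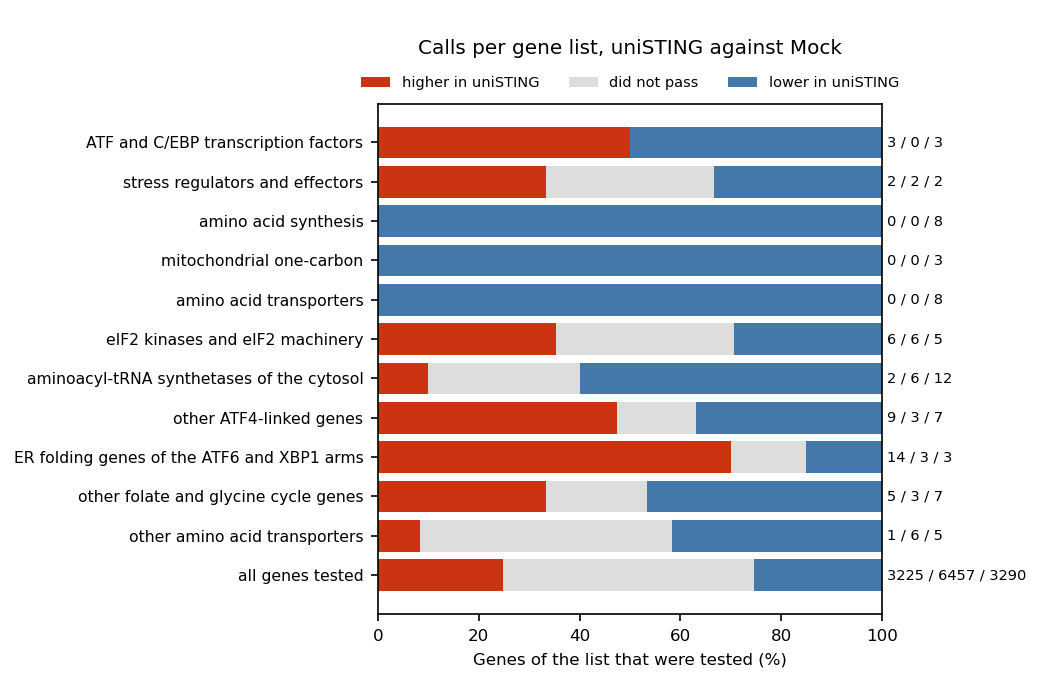
Share of the tested genes of each list that were higher (red), did not pass (grey) or were lower (blue) in uniSTING, with the 3 counts in that order at the right; the first 5 bars are the ATF4-linked genes by role and the last is all 12972 genes tested. The synthesis, folate and transporter bars hold lower genes only (8, 3 and 8), and 14 of 20 endoplasmic reticulum folding genes are higher.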

How the data were processed

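RNA of 2 uniSTING and 2 Mock samples was sequenced. For each the authors deposited raw read-pair counts of every gene. These were made with featureCounts 2.0.1 over the exons of a gene (Ensembl 103, GRCm39), without strand and from uniquely mapped pairs, per the file headers. HISAT2 was the aligner, per the submitters' processing notes, version not given in the sources used here. Headers name the alignments of a group L1 and L2, which is not explained.

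Symbols came from an identifier table that matched 52093 of 53647 genes, and 2 list genes were matched through RefSeq synonyms. Counts were tested with edgeR 4.0.16 (R 4.3.3): TMM scaling, filterByExpr on the groups (count of at least 10, total of at least 15), glmQLFit and glmQLFTest, and Benjamini-Hochberg adjustment over 12972 genes at 0.05. The standard error derives from the F statistic and is approximate. CPM uses TMM-scaled library sizes, and CPM per kb divides it by exon length as deposited. Fold changes of 1 replicate number use a prior count of 2. The intervals of low-count ratios are exact binomial ones and cover counting error only. On simulated counts the test recovered 44% of 1.2-fold, 73.5% of 1.5-fold, 76.6% of 2-fold and 95.9% of 4-fold changes. Of its 146 calls there, 5 were false. The simulation held no length trend and no shared deviation of same-numbered libraries, so it does not cover those features of the data.

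The 33 genes and the related lists were chosen with earlier results of these data known. Named outside the 33 are up to 4 genes of smallest p per related list, unless said otherwise. Alternatives were DESeq2 1.42.0 and its size factors, limma-voom 3.58.1, no filter, at least 1 CPM in 2 libraries, removal of length or length and GC trends (lowess, span 0.3, GC from transcripts of an older annotation), a replicate block and leaving out each library.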

Additional observations from a re-analysis of the deposited data

How the results depend on the processing

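Across 13 planned settings, the 31 tested genes gave 403 values, of which 374 kept direction and call. With direction kept, 19 lost the call and 4 gained it, and 6 values changed sign. Calls lost or gained among those 6 are not counted in the 19 and 4. For 20 genes no setting changed the call. The counts of ATF4-linked genes ran from 4 to 5 higher and from 21 to 24 lower, and their median from -0.27 to -0.25 when 1 library was left out; it was -0.23 with length and GC trends removed. Eif4ebp1 changed sign with the length trend removed (-0.09), with a replicate block besides (-0.09), with length and GC trends removed (-0.10) and without uniSTING replicate 2 (-0.0026, in a range of -0.0026 to 0.07 with 1 library left out). Slc38a2 did so with the length trend removed, without and with a replicate block (0.03 and 0.03). Same-numbered libraries deviated together (correlation 0.531 across 7970 genes), but there are only 2 pairs and the labels give the number no meaning; the replicate block gave 5 higher and 24 lower ATF4-linked genes, and 3374 higher and 3403 lower genes in all.

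Counts of related lists moved more. Calls over all genes moved as well. Higher genes among all those tested were 3225 in the main fit and 2159 with DESeq2. They were 3039 with the length trend removed and 2845 with length and GC trends removed. With DESeq2 the higher genes were 3 for the eIF2 list, 1 for synthetases, 5 for other ATF4-linked genes, 6 for endoplasmic reticulum folding and 2 for the folate and glycine list. Without the low count filter 1 synthetase was higher. With the length trend removed, 8 folding genes were higher and 1 lower, and with a replicate block besides, 8 and 1, with 4 synthetases higher. With length and GC trends removed, the higher genes were 2 (eIF2), 4 (synthetases), 8 (folding) and 3 (folate and glycine). With 1 library left out, the higher genes ran from 3 to 5 (eIF2), 1 to 2 (synthetases), 5 to 8 (other ATF4-linked), 9 to 12 (folding) and 3 to 5 (folate and glycine), and the lower other ATF4-linked genes from 4 to 6. The cause of these moves was not tested. Fits with 1 library in a group assume that it varies like the other group. The replicate 1 and replicate 2 libraries alone, chosen after seeing the data, gave medians of -0.25 and -0.26.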
